A study of Mus musculus with 8 samples.

Results

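Among 112137 regions marked by acetylation of histone H3 at lysine 27 (H3K27ac) in mouse embryonic stem cells, 3055 (2.72%) had signal in both wild-type groups and were listed at 0 in at least 1 of the groups lacking MLL3 and MLL4. Of these, 1417 were at 0 in naive DKO only, 1403 in formative DKO only and 235 in both. They were chosen by a rule on the deposited H3K27ac values themselves: above 0 in naive WT and in formative WT, and equal to 0 in naive DKO or formative DKO. The loss of H3K27ac at these regions is therefore how they were selected and is described without a test. They are called DKO-silent regions below, which refers only to the deposited 0. The comparison set is the 105643 regions above 0 in all 4 groups.

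H3K27ac was profiled by CUT&Tag, in which an antibody guides a transposase to the mark so that the tagged fragments can be sequenced. The 8 libraries form 4 groups of 2: naive WT, naive DKO, formative WT and formative DKO. WT cells are of the R1 embryonic stem cell line, DKO cells carry the labelled genotype MLL3KO_MLL4KO with no line or clone named, and formative cells were collected 63 hours after withdrawal of LIF2i, the medium additions that hold the naive state. The deposited table gives 1 pooled value per group on a log2(value + 1) scale, with no SD and no n, so that no difference between DKO and WT below has a replicate check, and the sequencing depth is unknown. Levels on this scale fall with region width, so levels are compared between groups within a region. Shares and medians over regions or genes are set side by side as descriptions with no test, since regions and genes are not replicates. Of the pluripotency genes, Pou5f1 had 3 regions within 100 kb of its transcription start site (TSS), Sox2 had 4 and Nanog had 8. None of them was DKO-silent, where 2.42% of all regions within 100 kb of a named gene were. Of the fibroblast genes Col1a1, Col1a2, Col3a1 and Thy1, Col1a1 had no region, while Col1a2 had 3, Col3a1 had 2 and Thy1 had 3. Among markers of endoderm, trophoblast and neural cells, the counts ran from 0 at Cdx2 to 6 at Sox1. A count of regions thus does not identify the cells.

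H3K27ac marks active enhancers and promoters and is written mainly by the acetyltransferases p300 and CBP. The products of Kmt2c and Kmt2d, the methyltransferases MLL3 and MLL4, place much of the monomethylation at lysine 4 of histone H3 (H3K4me1) found at enhancers, and they also help to recruit p300. In embryonic stem cells, enhancers are exchanged as cells leave the naive state for the formative state, which precedes lineage commitment.

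The DNA of 7 DKO-silent regions is shown because the results below turn on them: the promoter region of Wnt3, the regions with the highest WT signal near Tmem64, Apobec2 and Dpp6, an intronic region near Rbfox3 that was at 0 in both DKO groups, a region near Gm10324 on chromosome 13 that was at 0 in both DKO groups and far below WT for a second mark, and an intronic region near Tfcp2l1, a gene of the naive network. Each line gives the central 300 bases of the region on the plus strand of GRCm38.p6, the RefSeq copy of the mm10 build used by the table. Capitals mark matches to any of 11 short motifs that were searched on both strands.
Wnt3 chr11:103773793-103774092: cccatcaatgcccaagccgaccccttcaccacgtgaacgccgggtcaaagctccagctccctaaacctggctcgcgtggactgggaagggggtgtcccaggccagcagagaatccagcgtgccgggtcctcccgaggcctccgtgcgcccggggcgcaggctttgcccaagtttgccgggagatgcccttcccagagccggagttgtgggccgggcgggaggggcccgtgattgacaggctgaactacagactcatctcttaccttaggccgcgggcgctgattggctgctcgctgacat
Tmem64 chr4:15279991-15280290: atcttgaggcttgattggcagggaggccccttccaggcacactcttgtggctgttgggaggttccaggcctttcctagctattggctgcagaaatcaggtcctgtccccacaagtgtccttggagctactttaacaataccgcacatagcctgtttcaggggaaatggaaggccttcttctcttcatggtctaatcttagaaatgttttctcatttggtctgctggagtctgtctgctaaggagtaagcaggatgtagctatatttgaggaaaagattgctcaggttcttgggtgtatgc
Apobec2 chr17:48427333-48427632: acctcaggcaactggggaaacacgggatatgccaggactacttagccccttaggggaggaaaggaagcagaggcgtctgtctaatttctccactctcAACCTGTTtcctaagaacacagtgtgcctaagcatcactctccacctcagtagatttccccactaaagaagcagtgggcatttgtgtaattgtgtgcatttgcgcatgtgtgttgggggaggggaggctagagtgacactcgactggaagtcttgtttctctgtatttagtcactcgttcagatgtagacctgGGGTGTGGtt
Rbfox3 chr11:118886410-118886709: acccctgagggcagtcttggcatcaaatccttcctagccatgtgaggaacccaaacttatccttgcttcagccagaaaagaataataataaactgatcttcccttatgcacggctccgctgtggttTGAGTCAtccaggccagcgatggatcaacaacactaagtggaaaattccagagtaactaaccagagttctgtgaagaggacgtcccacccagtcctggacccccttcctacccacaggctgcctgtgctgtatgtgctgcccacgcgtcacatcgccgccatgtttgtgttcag
Dpp6 chr5:27343839-27344138: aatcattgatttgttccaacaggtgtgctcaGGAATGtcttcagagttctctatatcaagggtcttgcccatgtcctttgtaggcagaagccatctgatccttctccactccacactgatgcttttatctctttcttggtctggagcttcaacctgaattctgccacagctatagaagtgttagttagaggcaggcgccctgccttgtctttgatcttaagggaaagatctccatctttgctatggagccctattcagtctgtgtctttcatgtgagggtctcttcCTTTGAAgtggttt
Gm10324 chr13:66085328-66085627: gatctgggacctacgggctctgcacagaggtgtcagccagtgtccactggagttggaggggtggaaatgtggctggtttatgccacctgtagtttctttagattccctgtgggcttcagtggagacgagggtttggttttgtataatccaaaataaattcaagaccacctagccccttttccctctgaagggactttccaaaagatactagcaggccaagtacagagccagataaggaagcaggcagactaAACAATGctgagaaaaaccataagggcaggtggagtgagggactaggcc
Tfcp2l1 chr1:118635670-118635969: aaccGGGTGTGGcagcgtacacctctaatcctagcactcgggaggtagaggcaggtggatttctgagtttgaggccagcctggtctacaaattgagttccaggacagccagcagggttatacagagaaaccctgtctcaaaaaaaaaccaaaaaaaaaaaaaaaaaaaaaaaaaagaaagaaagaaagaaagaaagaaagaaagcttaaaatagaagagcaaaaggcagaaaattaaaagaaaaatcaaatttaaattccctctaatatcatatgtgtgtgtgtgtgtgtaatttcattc
These windows held 0 matches at Wnt3 and Tmem64, a GRHL and a KLF match at Apobec2, a palindromic AP-1 match read on both strands at Rbfox3, a TEAD and a TCF/LEF match at Dpp6, a SOX match at Gm10324 and a KLF match at Tfcp2l1. The GC content of the whole region was 64.0% at Wnt3, against 38.4% at Tmem64 and 42.1% at Dpp6. Bases masked as repeats made up 65.4% of the Tfcp2l1 region, against a median of 15.05% over all DKO-silent regions.

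Over all DKO-silent regions, the searched motifs were about as frequent as elsewhere. In the central 300 bases, the SOX motif CNTTGTT was found in 16.2% of DKO-silent regions and 15.8% of the other regions, the TEAD motif GGAATG in 15.4% and 15.5%, and the AP-1 motif TGANTCA in 8.87% of each. The octamer ATGCAAAT of POU factors was present in 1.60% against 1.46%, the estrogen-related receptor motif TCAAGGTCA in 0.949% against 0.946%, and the STAT motif TTCCNGGAA in 0.720% against 0.887%. The KLF motif GGGNGTGG was found in 8.77% of DKO-silent regions and 11.4% of the others, and the TCF/LEF motif CTTTGAA in 7.43% and 6.08%. Within the lowest quintile of regions by WT signal, the KLF and TCF/LEF motifs stood at 8.62% against 10.3% and at 7.95% against 6.25%. The remaining 3 motifs were AACCNGTT for GRHL factors (2.39% against 2.29%), CCGGAAGT for ETS factors (0.426% against 0.580%) and TGTTTAC for forkhead factors (4.12% against 4.08%). Base composition was also alike, with a median GC content of 47.9% in DKO-silent regions and 48.1% in the others. A match is a run of letters and not a bound site.

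The DKO-silent regions were narrow and had low read concentrations in WT cells. Their median WT concentration, the DiffBind log2 mean normalised read count (Conc) in the authors' deposited table, was 5.03 against 6.09 in the other regions, and their median width was 672 against 1123 bases. On the pooled scale, where levels fall with width, their median H3K27ac was 6.90 against 7.58 in naive WT but 8.91 against 8.03 in formative WT. Among regions in the lowest quintile of concentration, 9.57% were DKO-silent (2081 of 21740). The share was 3.28% in the next quintile, 0.929% in the middle one, 0.235% in quintile 4 and 0.0368% in the highest, which held 8 DKO-silent regions. By width it ran from 8.43% in the narrowest quintile to 0.0322% in the widest. A region listed at 0 in exactly 1 group was not a feature of DKO cells alone: 2593 regions were at 0 in naive WT only, 146 in formative WT only, 1417 in naive DKO only and 1403 in formative DKO only. The naive WT group thus had the highest number of such zeros. The plot of shares by quintiles of concentration and width shows the steep fall along both.

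**Figure D1:**
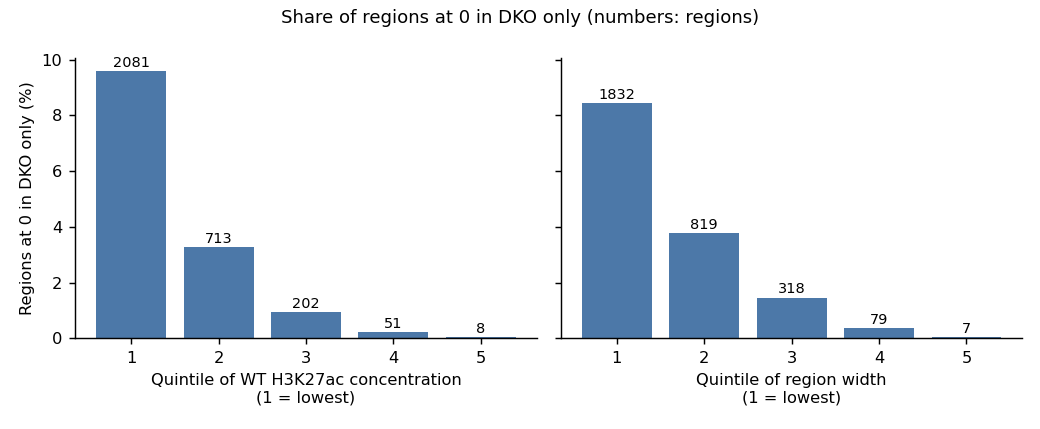
Share of regions that were DKO-silent (vertical axis, percent) by quintiles of WT H3K27ac concentration (left) and of region width (right), over the 108698 regions above 0 in both WT groups; numbers above bars are DKO-silent regions. The share fell from 9.57% to 0.0368% along concentration and from 8.43% to 0.0322% along width.

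Most regions at 0 in DKO in 1 state were above 0 in DKO in the other. Of the 1652 regions at 0 in naive DKO, 14.2% were also at 0 in formative DKO, and of the 1638 at 0 in formative DKO, 14.3% were at 0 in naive DKO. Over all regions above 0 in both WT groups, the shares at 0 were 1.52% in naive DKO and 1.51% in formative DKO. Regions silent in naive DKO only had a median formative value of 6.42 in DKO and 8.92 in WT, and 1244 of the 1417 (87.8%) were at least 2-fold lower in formative DKO, where 42% of all regions were that much lower. Regions silent in formative DKO only had a median naive value of 6.27 in DKO and 7.14 in WT, and 670 of the 1403 (47.8%) were at least 2-fold lower in naive DKO, against 27% of all regions. In the same class 19.4% were at least 2-fold higher in naive DKO. Each class is defined by a DKO value above 0 in the other state and by signal in both WT groups, so these shares use values that formed the classes, and nothing is read from them.

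**Figure D2:**
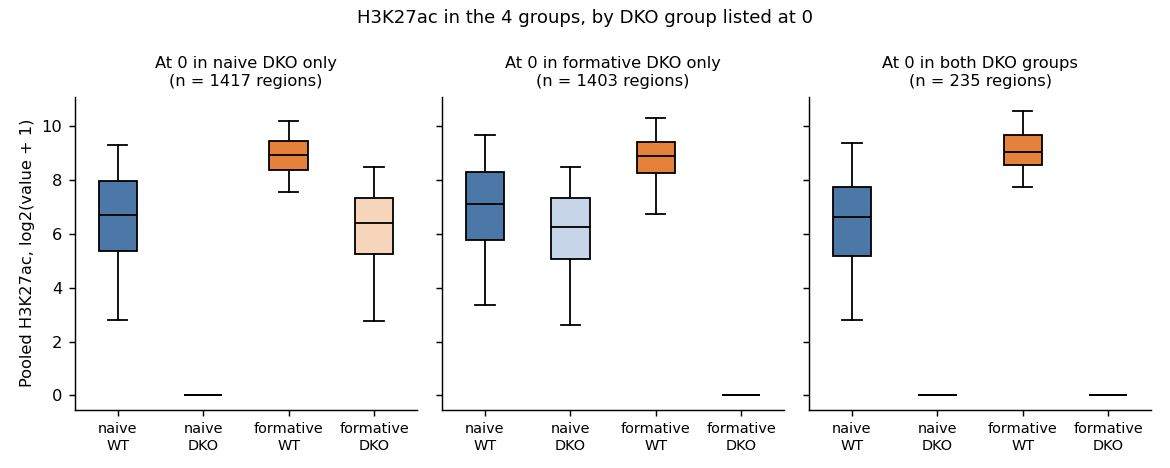
Pooled H3K27ac, log2(value + 1), in the 4 groups for regions at 0 in naive DKO only (n = 1417), in formative DKO only (n = 1403) and in both (n = 235); boxes span the quartiles with the median, whiskers the 5th to 95th percentile of regions. The group at 0 was fixed by the selection; in the other state the DKO medians were 6.42 and 6.27 against WT medians of 8.92 and 7.14.

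DKO-silent regions lay away from genes more often than the rest. In the deposited annotation, 45.8% were intergenic, 47.9% intronic, 2.98% exonic and 1.05% (32 regions) at promoters, whereas the other regions were 26.1% intergenic, 59.5% intronic, 4.66% exonic and 5.16% at promoters. The median distance to the nearest TSS was 37.5 kb against 19.7 kb, and 23.6% against 11.2% lay beyond 100 kb. The order was the same among weak regions: in the lowest quintile by concentration, 13.9% of intergenic, 7.73% of intronic and 3.86% of promoter regions were DKO-silent. Regions silent in both DKO groups were intergenic in 52.8% of cases.

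Within WT cells, DKO-silent regions more often gained H3K27ac on leaving the naive state than regions in general, with a smaller gap among regions of like signal. By the DiffBind test in the authors' deposited table (formative against naive WT, adjusted p under 0.05), 899 DKO-silent regions rose (29.4%) and 135 fell (4.42%). Over all 112137 regions tested, 20.8% rose and 15.8% fell in that table. The rise was more frequent in regions silent in naive DKO only (31.1%) and in both (35.7%) than in formative DKO only (26.7%), as counted from the authors' deposited table. The rise was more frequent among weak regions generally: in the lowest quintile of concentration, 693 of 2081 DKO-silent regions (33.3%) and 5312 of 19659 others (27.02%) rose in the authors' deposited table. In that quintile 1.25% of DKO-silent regions and 2.17% of the others fell in the authors' deposited table. These WT values also enter the selection, through the requirement of signal in both WT groups, so the counts are a description.

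H3K4me1, which took no part in the selection, was further below WT at DKO-silent regions than elsewhere in formative cells, while in naive cells the medians were close. It is given as the log2 fold of DKO against WT in the authors' deposited table, from pooled libraries outside this series. The median of these folds was -0.21 in naive and -0.35 in formative cells at DKO-silent regions, against -0.31 and -0.01 at the others. In naive cells, 659 DKO-silent regions (21.6%) had a fold of -1 or less, which is at least 2-fold lower, compared with 18.7% of all regions. A naive fold of 1 or more was found at 323 (10.6%), compared with 5.03% of all regions. In formative cells, 887 (29.0%) were at least 2-fold lower, compared with 16% of all regions, and 299 (9.79%) were higher by that much, compared with 10.5%. Most DKO-silent regions thus had H3K4me1 within 2-fold of WT.

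Among DKO-silent regions, the fold in H3K4me1 was lower where the WT H3K27ac signal was higher. From the lowest to the highest quintile of WT H3K27ac concentration, the median naive fold in the authors' deposited table was -0.08, -0.41, -0.75, -1.52 and -4.90. The median formative fold was -0.25, -0.43, -0.86, -1.19 and -3.06 in the same quintiles. Other regions showed no such course, with naive medians between -0.20 and -0.37 and formative medians between -0.05 and 0.03. In quintile 4, 70.6% of the 51 DKO-silent regions were at least 2-fold lower for naive H3K4me1, against 20.2% of the other regions. The highest quintile rests on 8 regions, of which 5 lie in 1 stretch of chromosome 13 described below. Without that stretch it held 3 regions, with medians of -1.39 in naive and -0.54 in formative cells, and quintile 4 held 45, with medians of -1.37 and -1.09.

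**Figure D3:**
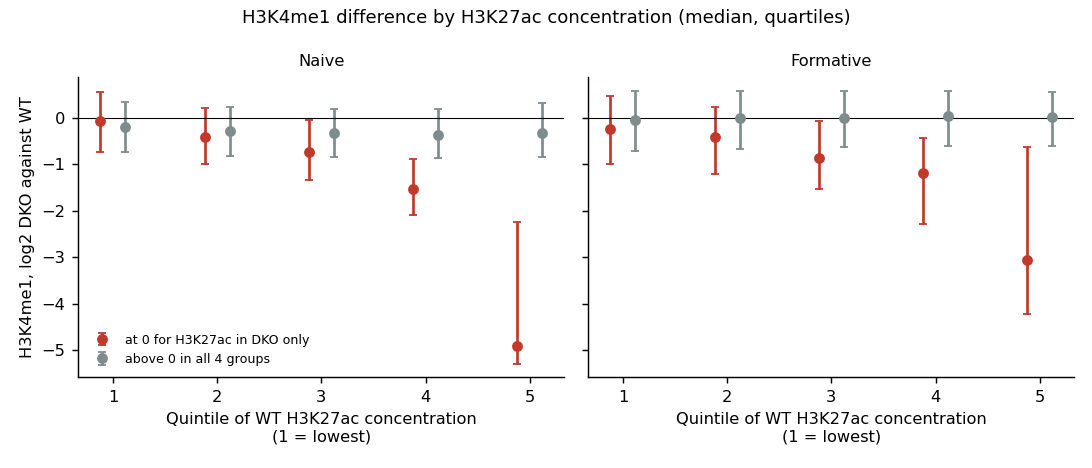
Median log2 difference in H3K4me1 between DKO and WT (points, with quartiles over regions as bars) by quintiles of WT H3K27ac concentration, for DKO-silent regions (red) and regions above 0 in all 4 groups (grey). The red medians go from -0.08 down to -4.90 for naive and -0.25 down to -3.06 for formative cells, the last point resting on 8 regions.

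The regions named next have the highest Conc of their class among those within 100 kb of a gene, with 1 region per gene and with Gm and Rik gene models left out. Regions of higher Conc lie near such models, among them those of the chromosome 13 stretch, or farther from a gene. For regions silent in naive DKO only, the first was near Tmem64, a transmembrane protein gene (chr4:15279101-15281181, intron, 14.3 kb from the TSS). It had H3K27ac values of 8.19 in naive WT, 5.27 in formative WT, 0 in naive DKO and 3.41 in formative DKO. Its H3K4me1 fold was -1.39 in naive and -0.13 in formative cells in the authors' deposited table, and its RNA fold there was -2.41 and 0.01. The region whose nearest gene is Ackr1, an atypical chemokine receptor gene (chr1:173347883-173349125, intron), was at 8.82, 8.39, 0 and 4.37 in the same order. In the authors' deposited table its H3K4me1 fold was -2.08 in naive and -1.36 in formative cells. Klhl7 encodes an adaptor of a cullin ubiquitin ligase. The intronic region nearest to it (chr5:24106650-24107478) was at 9.28 in naive WT, 9.71 in formative WT, 0 in naive DKO and 7.42 in formative DKO. Nphs1os (7.00), Nudt11 (6.95) and Wdr7 (6.83) completed the 6 regions that this rule took by Conc in the authors' deposited table.

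The 6 regions taken by the same rule from those silent in formative DKO only all fell in WT on leaving the naive state, unlike most of their class. The intronic region near Apobec2, of the cytidine deaminase family (chr17:48426807-48428159), had H3K27ac of 10.1 in naive WT, 7.48 in formative WT, 7.34 in naive DKO and 0 in formative DKO. The authors' deposited table gives it a formative against naive WT log2 fold of -2.58 (DiffBind adjusted p 1.19e-08). The 6, near Apobec2, Vmn1r167, Mir6352, Dpp6, Apobec3 and Cd300ld, have a negative fold with an adjusted p of at most 0.001 in the authors' deposited table. In the whole class, the authors' deposited table has 96 of 1403 regions that fell (6.84%) and 374 that rose. Of the regions above 0 in all 4 groups, 45.4% fell in the highest quintile of Conc, where the Apobec2 region lies, by the authors' deposited table. In quintile 4, where the rest of the 6 lie, 18.2% fell. The region near Vmn1r167, a vomeronasal receptor gene, was already near 0 in formative WT (0.43 against 10.3 in naive WT), so its formative 0 in DKO is a small difference.

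By the same rule, the regions taken from those at 0 in both DKO groups lay near Mir680-2, Rbfox3, Slc6a6, Ly75, Sva and Dab1. The highest Conc of that class, 6.41 in the authors' deposited table, belongs to a region nearest to Sgcd that is over 100 kb from its TSS. The intergenic region near the microRNA gene Mir680-2 (chrX:144280031-144280767) was at 10.2 in naive WT and 7.80 in formative WT, and its H3K4me1 fold in the authors' deposited table was -1.02 in naive and 0.09 in formative cells. The intronic region near Rbfox3, a neuronal splicing regulator (chr11:118885853-118887267), was at 4.55 in naive WT and 8.28 in formative WT. Its H3K4me1 was near WT, with folds of 0.11 and -0.12 in the authors' deposited table. The same combination was seen near Ly75, an endocytic receptor gene, with H3K27ac of 6.78 in naive WT and 8.21 in formative WT and with H3K4me1 folds of -0.19 and 0.00 in the authors' deposited table. Near Slc6a6, the taurine transporter gene, the authors' deposited table gives H3K4me1 folds of 0.25 in naive and -2.47 in formative cells. For Sva those folds were -1.67 and -0.86, and for Dab1, an adaptor of reelin signalling, -1.26 and -0.79 in the authors' deposited table.

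Most genes near DKO-silent regions had 1 of them, and a few had several. Of 1953 genes with a DKO-silent region within 100 kb, 1679 had 1, and Dpp6, which encodes an auxiliary subunit of voltage-gated potassium channels, had the most, with 10 of its 31 regions on chromosome 5. Of these 10, 5 were at 0 in naive DKO only and 5 in formative DKO only, and 9 were intronic. Their H3K27ac was between 6.07 and 10.2 in naive WT and between 3.94 and 8.90 in formative WT. By the authors' deposited table, H3K4me1 was below WT at 9 of the 10 in naive cells (median fold -0.97) and at 6 of the 10 in formative cells (median fold -1.01). Over the regions above 0 in all 4 groups, the median folds there were -0.31 and -0.01. RNA of Dpp6 in the authors' deposited table differed by -2.02 in naive and -0.90 in formative DKO on the log2 scale. Ank1 (6 of 18 regions), Gm10637 (6 of 13) and Zfp423 (6 of 84, 7.14%) followed, all on chromosome 8. Of all regions within 100 kb of a named gene, 2.42% were DKO-silent, and of all regions on chromosome 8, 4.44%. The genes were picked for these counts, which are not adjusted for the number of regions per gene. Nkd1, an inhibitor of Wnt signalling, had 5 of 17, as many as Stox2, Wwc1 and Zfp469, and is taken as the fifth gene only by the alphabet. The 6 regions near Zfp423, a zinc finger transcription factor gene, were all below WT for naive H3K4me1 in the authors' deposited table (median fold -0.66), whereas the 6 near Ank1 had median folds of 0.10 in naive and 0.23 in formative cells. The 6 near Zfp423 lie in chr8:87125709-88017531, where the 104 regions that were not DKO-silent also had a median naive fold of -0.66.

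Near genes of pluripotency, a few regions were DKO-silent, at shares that are not set apart here from the share near all genes. Within 100 kb of 20 genes of the naive network, 4 of 219 regions were DKO-silent (1.83%), compared with 2.42% of all regions within that distance of a named gene. Near 19 formative genes the count was 2 of 135, near 15 core genes 1 of 108, near 15 genes of the LIF/STAT3 pathway 0 of 146, and near 23 genes of the machinery for the 2 marks 1 of 202. The intronic region near Tfcp2l1 (chr1:118635231-118636410) was at 8.89 in naive WT, 8.69 in naive DKO, 2.52 in formative WT and 0 in formative DKO. Its DiffBind concentration in formative WT was -0.4 in the authors' deposited table, the lowest value among DKO-silent regions. Formative WT was thus already low there. The region 1.78 kb from the TSS of Dppa3, a maternal factor and naive marker (chr6:122624260-122625024), was at 8.13 in naive WT, 8.83 in naive DKO and 8.27 in formative WT before its 0 in formative DKO. Its H3K4me1 folds were -0.46 and -0.23 in the authors' deposited table. A region near the naive gene Esrrb, an orphan nuclear receptor, was the reverse: 0 in naive DKO and 6.97 in formative DKO, with 8.51 and 9.54 in WT. Near Klf5 the values were 4.70 in naive WT, 8.86 in formative WT, 7.90 in naive DKO and 0 in formative DKO. In naive and formative DKO, RNA folds in the authors' deposited table were 1.37 and 0.46 for Dppa3 and -0.57 and 0.37 for Klf5. For Tfcp2l1 they were -0.26 and -0.16.

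Among formative genes, an intronic region near the DNA methyltransferase gene Dnmt3b (chr2:153664276-153666024) was at 6.16 in naive WT, 7.50 in formative WT, 0 in naive DKO and 5.31 in formative DKO. Near the growth factor gene Fgf5 (chr5:98265097-98265620) the values were 5.12, 9.22, 6.57 and 0 in the same order, and the H3K4me1 fold was 0.75 in naive and -0.26 in formative cells in the authors' deposited table. The list of core genes, not the formative one, gave 1 region, near the nuclear receptor gene Nr6a1. It was at 5.68, 7.38, 0.86 and 0 in that order, with H3K4me1 folds of -1.19 and -1.42 in the authors' deposited table. RNA folds of Nr6a1 in the authors' deposited table were -1.39 in naive and -1.75 in formative DKO, and those of Fgf5 were -0.08 and -0.42. The machinery gene was Hdac2, a deacetylase gene, with a region 41.5 kb away at 8.34, 7.18, 5.02 and 0 in that order. For Hdac2 the RNA folds in the authors' deposited table were -0.11 in naive and 0.33 in formative DKO.

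Genes of later lineages gave a few further cases. Near 12 primed and mesendoderm genes with regions, 3 of 54 regions were DKO-silent, 2 of them at Wnt3 and 1 at T, the mesoderm regulator brachyury. Wnt3 was the strongest of the 32 promoter cases, a choice made after their values were seen. Its promoter region (chr11:103773465-103774421) was at 6.53 in naive WT, 9.10 in formative WT, 0 in naive DKO and 7.72 in formative DKO, while its H3K4me1 fold was positive in the authors' deposited table, at 1.04 in naive and 1.30 in formative cells. The log2 RNA fold of Wnt3 in the authors' deposited table was 4.11 in naive and -2.04 in formative DKO. The naive 0 at this promoter was fixed by the selection, so its direction is not set against that of the RNA. The other DKO-silent region near Wnt3, an intronic one (chr11:103804448-103805218), was at 0.62 in naive WT and 7.83 in naive DKO. It was at 8.57 in formative WT and 0 in formative DKO, where the 0 was again fixed by the selection. These are 2 of 13 regions within 100 kb of Wnt3, so no direction for the gene is read from them. The intronic region near T was at 9.21 in naive WT, 9.31 in formative WT, 5.94 in naive DKO and 0 in formative DKO, and RNA of T in the authors' deposited table differed by -0.24 in naive and -3.23 in formative DKO. Markers of other cell types with a DKO-silent region were Gata4 of primitive endoderm (2 of the 54 regions near that list, 3.70%), Tfap2c of trophoblast (1 of 66, 1.52%), and Pax6 and Sox1 of neural cells (2 of 16, 12.5%). RNA folds of Sox1 in the authors' deposited table were 1.95 in naive and 2.49 in formative DKO. Near housekeeping genes 2 of 96 regions were DKO-silent, both at Ywhaz, and near fibroblast genes 0 of 16, where the share near all genes was 2.42%.

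Genes near DKO-silent regions more often had lower RNA in DKO than genes in general. RNA folds, 1 per gene and from libraries outside this series, are taken from the authors' deposited table. For 954 genes with a DKO-silent region within 100 kb, the median log2 RNA difference in the authors' deposited table was -0.06 in naive and -0.03 in formative DKO, against 0.03 and 0.06 over all 9723 genes. By the authors' deposited table, 174 of them (18.2%) were 2-fold or more lower in naive DKO, where 11.2% of all genes were, and 94 (9.85%) were 2-fold or more higher, where 8.44% of all genes were. In formative cells 93 (9.75%) were lower and 56 (5.87%) higher, against 5% and 5.79% of all genes in the authors' deposited table. Genes with a DKO-silent region had a median of 8 regions and the others 4. Among genes with 11 to 20 regions, the authors' deposited table gives 15.8% lower in naive DKO with a DKO-silent region and 8.54% without, and among genes with over 20 regions 18.3% and 7.85%. The share at least 2-fold higher in naive DKO was also larger with a DKO-silent region among genes with 11 to 20 regions (7.05% against 4.65%) and in all bins with fewer, but not among genes with over 20 (2.15% against 3.75%), by the authors' deposited table.

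The extremes of these RNA values, picked after they were seen, included Apobec2, at -4.74 in naive and -0.53 in formative DKO in the authors' deposited table. Its DKO-silent region described above was at 7.34 in naive DKO against 10.1 in naive WT, and at 0 in formative DKO against 7.48 in formative WT. Arhgef3, a guanine nucleotide exchange factor gene, had 3 of 39 regions, and its RNA folds in the authors' deposited table were -3.58 and -2.58. On the other side, Cpne8, a copine gene, had RNA folds of 4.30 and -1.02 in the authors' deposited table and an intergenic region at 9.21 in naive WT and 0 in naive DKO.

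DKO-silent regions were unevenly spread over chromosomes. Chromosome 8 held 390 (4.44% of its regions) and chromosome 6 held 312 (3.98%), against 2.81% overall and 1.88% on chromosome 19. Chromosome Y, with 93 regions, held 4 (4.30%). In the lowest quintile of concentration, the share on chromosome 8 was 15.4% against 9.57% overall. The median over all regions of chromosome 8 was also lower in DKO, by -0.50 for naive and -1.21 for formative H3K27ac against -0.13 and -0.68 over all chromosomes. Naive medians were lower still on chromosome X, at -0.82 with a formative median of -0.76, where 3.08% of regions were DKO-silent. On chromosome Y they were -1.3 and -1.5. The median H3K4me1 fold in the authors' deposited table was -0.56 and -0.20 on chromosome 8 against -0.30 and -0.02 over all chromosomes. It was like that on chromosome 17 (-0.56 and -0.20) and chromosome 14 (-0.54 and -0.23), where only 1.96% and 2.45% of regions were DKO-silent. On chromosome 6 the H3K27ac medians were -0.53 and -1.07, and the median H3K4me1 folds in the authors' deposited table were -0.31 and -0.12. The part of these chromosome-wide differences, or of copy number, in the counts of DKO-silent regions was not tested.

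**Figure D4:**
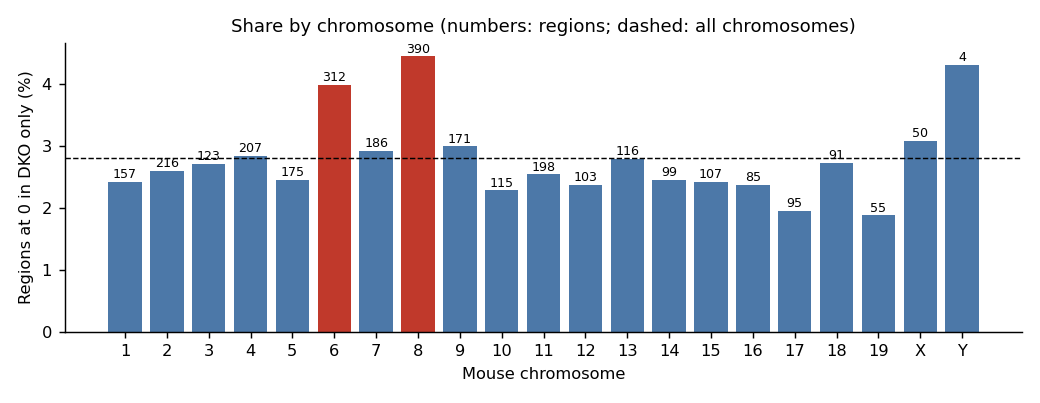
Share of regions that were DKO-silent (vertical axis, percent) on each mouse chromosome; numbers above bars are DKO-silent regions and the dashed line is the 2.81% over all chromosomes. Chromosomes 8 (4.44%) and 6 (3.98%), in red, and Y, with 4 regions, stand furthest above the line.

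When DKO-silent regions no more than 150 kb apart were joined, 1563 stood alone, 43 groups had at least 5 and 6 had at least 10. The group with the most, 20 of 124 regions, spans 892 kb of chromosome 8 (chr8:87125709-88017531) with Zfp423 and Cbln1. The second, 17 of 89 regions over 765 kb of chromosome 13 (chr13:65688539-66453791), was singled out after its values were seen. It differs from most DKO-silent regions by its strong WT signal, with a median Conc of 6.84 in the authors' deposited table. Of its 17 regions, 4 were silent in naive DKO only, 12 in formative DKO only and 1 in both. The region at chr13:66085038-66085918 was at 8.75 in naive WT, 7.55 in formative WT and 0 in both DKO groups, with H3K4me1 folds of -7.01 and -4.06 in the authors' deposited table. The adjacent region at chr13:66095181-66096191 was at 11.4 in naive WT and 0 in naive DKO, with H3K4me1 folds of -7.16 and -3.04 in the authors' deposited table. The lowest H3K4me1 folds of the 17, -9.52 in naive and -8.93 in formative cells in the authors' deposited table, were at chr13:66411514-66411863.

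By the authors' deposited table, all 17 were at least 4-fold lower in naive DKO for H3K4me1 (median fold -5.10), and 14 of 17 in formative DKO (median fold -3.09). The 72 other regions inside the stretch were low as well, with medians of -2.94 and -1.75 for H3K4me1 and -3.17 and -2.21 for H3K27ac, and 71 of them were below WT for naive H3K4me1. Flanks of 1 Mb had median H3K4me1 folds in the authors' deposited table of -0.98 and -0.53 on the lower side and -1.24 and -0.30 on the upper side. For H3K27ac the flank medians were -2.07 in naive and -0.55 in formative cells on the lower side, and -1.35 and -0.44 on the upper side. Lower values thus extended beyond the stretch, whose edges were set by the DKO-silent regions. Of 274 regions in the table with H3K4me1 at least 8-fold lower in naive DKO, 48 lay in this stretch, and 43 were DKO-silent, 15 of them inside. DKO-silent regions made up 2.72% of all 112137 regions, and the stretch held 89. Since the stretch was singled out after its values were seen, its counts in part restate that choice. RefSeq places 29 genes there, of which 7 are protein coding and 15 are pseudogenes. None of the 89 regions had all of 5 evenly spaced 32-base words unique in the genome: a mean of 14.1% of words was unique in the 17 DKO-silent regions and 5.83% in the other 72, against 89.0% over all DKO-silent regions and 85.1% over the other regions of the table. The part of repeated sequence or of copy number between the lines in the values of this stretch was not tested.

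**Figure D5:**
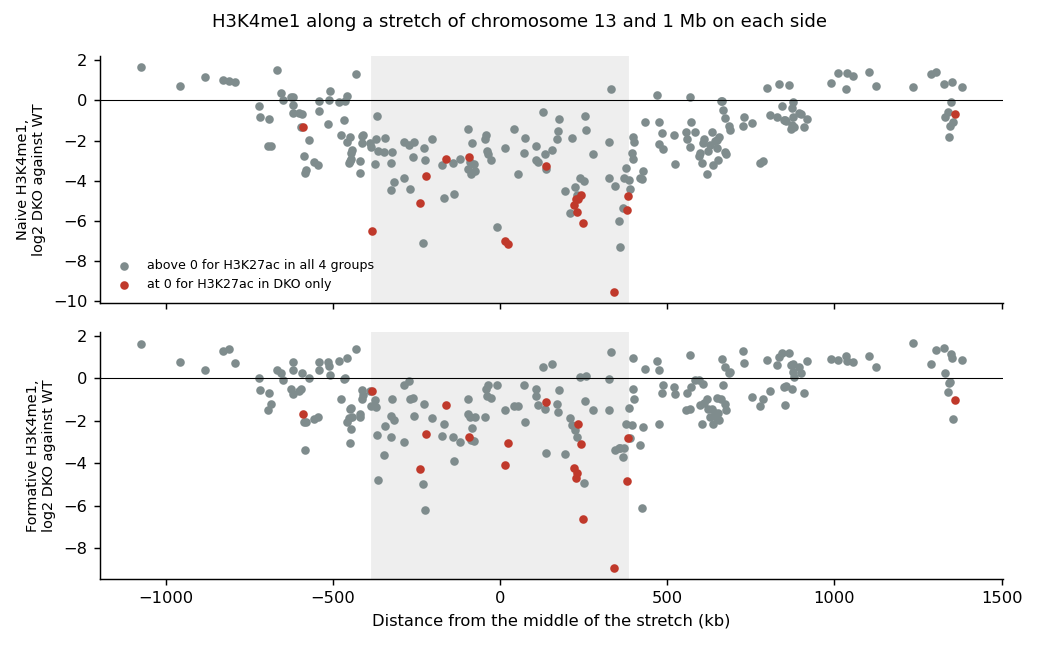
Log2 difference in H3K4me1 between DKO and WT in naive (top) and formative (bottom) cells for regions along chromosome 13, by distance in kb from the middle of the stretch (grey band) and 1 Mb on each side; red points are DKO-silent regions. All 17 red points in the band lie below 0 in both states, with medians of -5.10 and -3.09.

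At the edge of the rule, the 2 regions just outside in naive cells, near Tle3 and Gm15412, had naive DKO values of 0.01 and 0.01 against naive WT values of 8.41 and 6.61. In formative cells they lay near Tex38 and Zfp704, at 0.03 and 0.03 against formative WT values of 8.84 and 7.89. The 2 regions just inside, with the lowest WT value of the state, were near Kctd3 (naive WT 0.03) and Sox11 (0.06) for naive DKO, and near Cobl (formative WT 0.10) and Vmn1r167 (0.43) for formative DKO. In all, 182 regions had a naive DKO value and 160 a formative DKO value above 0 and under 1.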

How the data were processed

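H3K27ac CUT&Tag was analysed from 1 deposited table of 112137 regions and 47 columns, of which 18 were used. The submitters' processing notes name the build mm10 and, with no role or version, DiffBind, SEACR, deepTools, Bowtie2 and Trim Galore. The 4 H3K27ac columns hold the authors' log2(value + 1), 1 pooled value per group. The H3K4me1 and RNA log2 folds were deposited by the authors from libraries outside this series; 12 columns with H3K4me1 or RNA levels of those libraries were not used. DiffBind's concentrations, log2 fold and adjusted p-value (formative over naive, WT only) are the authors' own, as deposited. With pooled columns nothing else could be tested, so counts and medians stand beside those of all other regions. Nothing in the table states how groups were scaled. Replicates were cultured and prepared separately, per the series design text.

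A gene is the one whose TSS is nearest in the table, within 100 kb, so the gene an intron belongs to can differ from it. RNA was matched by gene symbol over all rows of the gene. The rule for named regions took the 6 with the highest Conc per class (1 per gene, Gm and Rik models left out), the 5 genes with most DKO-silent regions, up to 4 per pluripotency, LIF/STAT3 and machinery list, and 2 on each side of the threshold per state. The members and lists were chosen with earlier results of these data known. Quintiles of Conc were taken over the 108698 regions above 0 in both WT groups. Sequences came from RefSeq GRCm38.p6, in which every region's end lay within its chromosome. Scripts ran in Python 3.11.15 with pandas 2.3.3 and numpy 2.4.6. The rule for DKO-silent regions and their classes was tested on zeros planted among real regions, and the other steps had no such test.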

Additional observations from a re-analysis of the deposited data

How the results depend on the processing

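No paired analysis was possible because the deposited columns are pooled per group and carry no replicate number, and for the same reason leaving out a replicate was not run. None of the values recomputed here changed sign under an alternative. Keeping only regions above the lowest quintile of Conc over all regions (5.22) left 1080 DKO-silent regions, whose median width was 820 bases and median Conc 5.52, with H3K4me1 medians of -0.47 (naive) and -0.53 (formative), 232 regions that rose in WT and a median naive RNA difference of -0.21. Keeping only regions above the median width (1082 bases) left 228, with a median width of 1224.5, a median Conc of 5.79, H3K4me1 medians of -0.50 and -0.81, 97 that rose, 25 that fell, and RNA medians of -0.38 (naive) and -0.40 (formative). A DiffBind adjusted p under 0.01 left 547 that rose. With the TSS within 10 kb, the RNA medians were -0.21 and -0.11. Against other regions of the same quintile of Conc, the naive H3K4me1 difference of medians went from 0.092 to 0.015. The sign of that difference was not the same in all quintiles. In the lowest, the DKO-silent median was -0.08 against -0.20 at the others. In each higher quintile the DKO-silent median was the lower one, at -0.41 against -0.29 in quintile 2. Counting DKO values under 1 as 0, leaving out chromosome 8, and leaving out the chromosome 13 stretch (chosen after seeing the data) moved none of these results beyond the limits used. Depth is unknown, so how far a 0 is a lack of reads was not tested.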
